A study of Homo sapiens with 9 samples.

Results

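Translation initiation and elongation factors are the proteins that bring the ribosome to an mRNA, find the start codon and move the ribosome along the message. Their genes were taken here as the protein-coding genes whose symbols begin with EIF1 to EIF6, EEF1 or EEF2, outside chromosome Y, which includes the EIF4EBP genes. The rule used names and no measured values, and it found 67 genes among 31589 genes, of which 17226 are protein-coding. Of the 67, 66 were listed in all 3 deposited tables, 1 for each pair of conditions, and 65 passed the filter on low counts in each comparison.

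The libraries were poly-A selected RNA-seq of whole human spinal cord organoids (SCOs), 3-dimensional cultures of neural tube-like tissue grown from the WTC induced pluripotent stem cell line, whose genotype is labelled WT. The study's methods describe clones of this line carrying a reporter in the SOX10 gene, some of them with small insertions or deletions on its other allele, and pools of several SCOs per clone. There were 3 libraries each of SCOs under vehicle, under valproic acid (VPA, an anti-seizure drug that inhibits histone deacetylases) and under VPA + Rapamycin (an inhibitor of mTOR). The vehicle libraries also carry the name FGF in their titles, and the labels give 96 h of treatment for all 9. The paper describes the vehicle as FGF alone and VPA as given together with FGF, so FGF is not the contrast. No library received Rapamycin alone, so Rapamycin is seen only on top of VPA. The libraries of the 3 conditions share a set of 3 library codes. The legend of the paper's RNA-seq heatmap gives each column as a clone, but the labels do not say whether a code stands for a clone. The p-values measure the spread between these libraries, part of which may be technical. Each library held 15290299 to 17417338 counts, at which 3 counts, taken as the smallest level told from 0, correspond to 0.172 to 0.196 CPM, the unit of read count relative to library size used throughout.

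In the canonical route, eIF4E binds the cap of the mRNA and, with the scaffold eIF4G and the helicase eIF4A, recruits the small ribosomal subunit carrying eIF3, eIF1, eIF1A, eIF5 and the initiator tRNA bound to eIF2. eIF5B then joins the large subunit, and eEF1A and eEF2 carry out elongation. This route is known to be switched at a pair of points. mTOR phosphorylates the 4E-BPs (encoded by the EIF4EBP genes), which releases eIF4E, and stress kinases phosphorylate eIF2, which blocks its recharging by eIF2B. Both controls act on proteins, whereas the values below are mRNA levels. Many mRNAs for translation factors begin with a C followed by a run of pyrimidines, known as a 5′ terminal oligopyrimidine (TOP) start, through which mTOR is known to control their translation.

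The start of the transcript is shown first, because it sets apart the factors with a TOP-like start. The RefSeq promoter table (GRCh38.p14) held 53 of the 67 genes. A TOP-like start was counted where the first base was a C and pyrimidines ran unbroken for at least 5 bases from it, at any start listed for the gene. It was found in 13 of the 53 (24.5%), against 846 of 11871 genes (7.13%). These 11871 were the genes of the promoter table that passed the filter on low counts in any comparison. The 53 were not filtered in this way and include EIF4E1B and EIF4EBP3, which did not pass. The windows below are 30 bases long, 10 before the start and 20 from it on, with the pyrimidine run in capitals. They cover EEF1A1 (chr6:73521013-73521042, minus strand), EEF2 (chr19:3985444-3985473, minus strand), EIF3D (chr22:36529147-36529176, minus strand), EIF4A2 (chr3:186783567-186783596, plus strand), EIF2D (chr1:206612446-206612475, minus strand) and EIF3K (chr19:38619178-38619207, plus strand). The first pair are the factors with the highest levels, EIF3D carries a run of 10 bases, and the last 3 are the factors with such a start that passed the test under VPA.
EEF1A1: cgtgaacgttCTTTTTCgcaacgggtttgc
EEF2: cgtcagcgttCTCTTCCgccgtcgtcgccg
EIF3D: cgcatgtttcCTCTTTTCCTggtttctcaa
EIF4A2: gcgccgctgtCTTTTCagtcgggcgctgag
EIF2D: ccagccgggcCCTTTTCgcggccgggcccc
EIF3K: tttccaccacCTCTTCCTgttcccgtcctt

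For contrast, the windows of EIF1B (chr3:40309697-40309726, plus strand) and EIF2AK4 (chr15:39934105-39934134, plus strand) hold no such run. Both genes passed the test when Rapamycin was added to VPA.
EIF1B: cattttgtgcgagaagccgcagcgccgcct
EIF2AK4: gcccgtccccagcgcggagccccgccccgc

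In vehicle SCOs the level per length, in CPM per kilobase of gene length (RPKM), fell steeply from 2 elongation factors to the rest. Gene length counts all annotated exon bases of a gene, so the order between genes depends on the annotation. EEF1A1, which delivers aminoacyl-tRNA to the ribosome, stood at 2045 ± 116 RPKM (SD, n = 3). EEF2, which translocates the ribosome, stood at 611 ± 105 RPKM. EIF4G2, a scaffold relative of eIF4G that does not bind eIF4E, came next at 165 ± 22.8 RPKM, and EEF1B2, the exchange factor of eEF1A, followed at 111 ± 13.8 RPKM. The first 3 steps of this order were larger than the SDs. From EEF1B2 to EIF3E neighbours were closer than their spread: EIF4A2 (98.4 ± 14.5 RPKM), EIF3L (93.1 ± 5.37 RPKM), EIF4B (91.4 ± 6.28 RPKM) and EIF3E (88.2 ± 14.2 RPKM) could not be ordered. The 67 genes together took 2.19% to 2.61% of all counts in a library, and EEF1A1 alone took 0.992% to 1.30%.

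**Figure D1:**
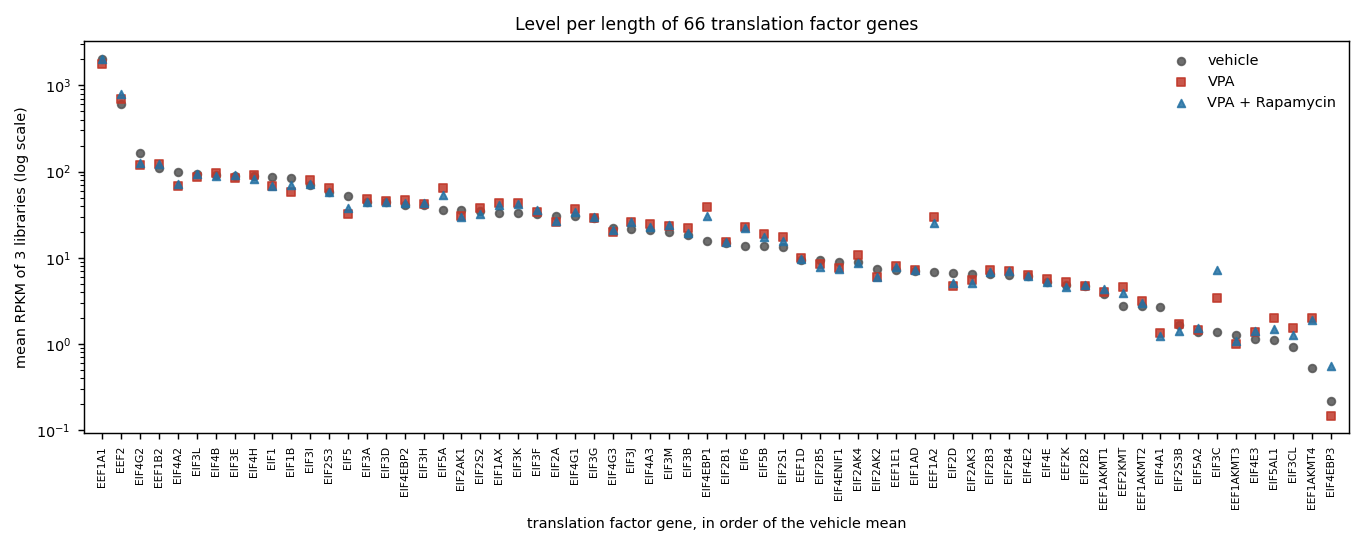
Mean RPKM of the 3 libraries of each condition (log axis) for the 66 translation factor genes listed in all 3 tables, in order of the vehicle mean. EEF1A1 and EEF2 stand above all others in every condition, and EEF1A2, EEF1AKMT4 and EIF3C are the genes that part most from the vehicle mean.

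For some factors the annotation limits what their level can show. EIF4A1, the main eIF4A helicase of many cells, stood at only 2.68 ± 0.197 RPKM, under its paralog EIF4A2. In GENCODE 29, whose coordinates all 67 genes match, 48.6% of the exon bases of EIF4A1 also belong to other genes, chiefly AC016876.2 on the same strand (41.1%). EIF3L shares 51.8% of its exon bases, chiefly with AL022311.1 on the same strand (41.1%), so its place among the highest initiation factors carries the same limit. EIF3C stood at 1.36 ± 0.288 RPKM and its near-identical copy EIF3CL at 0.924 ± 0.132 RPKM, while the other 12 eIF3 subunits stood at 18.3 to 93.1 RPKM. Of the 100-base words in EIF3CL transcripts, 95.2% also occur in EIF3C, and 42.9% of those in EIF3C occur in other genes, so reads of this pair cannot be assigned with certainty. EIF5AL1, a copy of EIF5A, shares 7.83% of its 100-base words with other genes. EEF1A1 shares 15.3% with 9 other genes, chiefly EEF1A1P5 (13.5%), so its level and the share of EEF1A2 in eEF1A given below carry this limit. EEF2KMT shares 29.3% of its exon bases with ALG1 on the other strand. EIF4EBP3 had 0 to 0.630 CPM, 73.4% of its exon bases are shared with ANKHD1-EIF4EBP3, and it was not tested. EIF4E1B, a germline relative of EIF4E, had 0 counts in each vehicle library, 0, 0 and 1 under VPA and 2, 5 and 3 under VPA + Rapamycin, and was not tested either. The part of shared reads in the results below was not tested.

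The first comparison asks which factors changed under VPA. With VPA, EEF1A2, the form of eEF1A known from neurons and muscle, rose 4.35-fold, and EIF5A, the hypusine-bearing factor that helps the ribosome past difficult stretches, rose 1.79-fold. EIF4EBP1, an inhibitor of eIF4E, rose 2.44-fold. Among factors of scanning and start codon choice, EIF5 fell 1.62-fold and EIF1B 1.48-fold while EIF5B rose 1.36-fold. The helicase genes EIF4A1 and EIF4A2 fell. In all, 11 of the 65 tested genes were higher and 7 lower at an edgeR adjusted p of at most 0.05, where 16.4% of all 17360 genes tested were higher and 15.7% lower. Both counts are near this background. The median log2 fold change was 0.08 over the 65 genes and -0.003 over all genes tested, and 44 of the 65 (67.7%) were above 0, against 49.7% of all genes tested. The median absolute log2 fold change was 0.22, against 0.36 over all genes, and 5 of the 65 (7.69%) reached an absolute value of 1, against 14.0% of all genes. The count of higher genes was 7 without vehicle replicate 2, 7 without VPA replicate 2 and 6 without VPA replicate 3, and the count of lower genes was 11 without vehicle replicate 1.

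**Figure D2:**
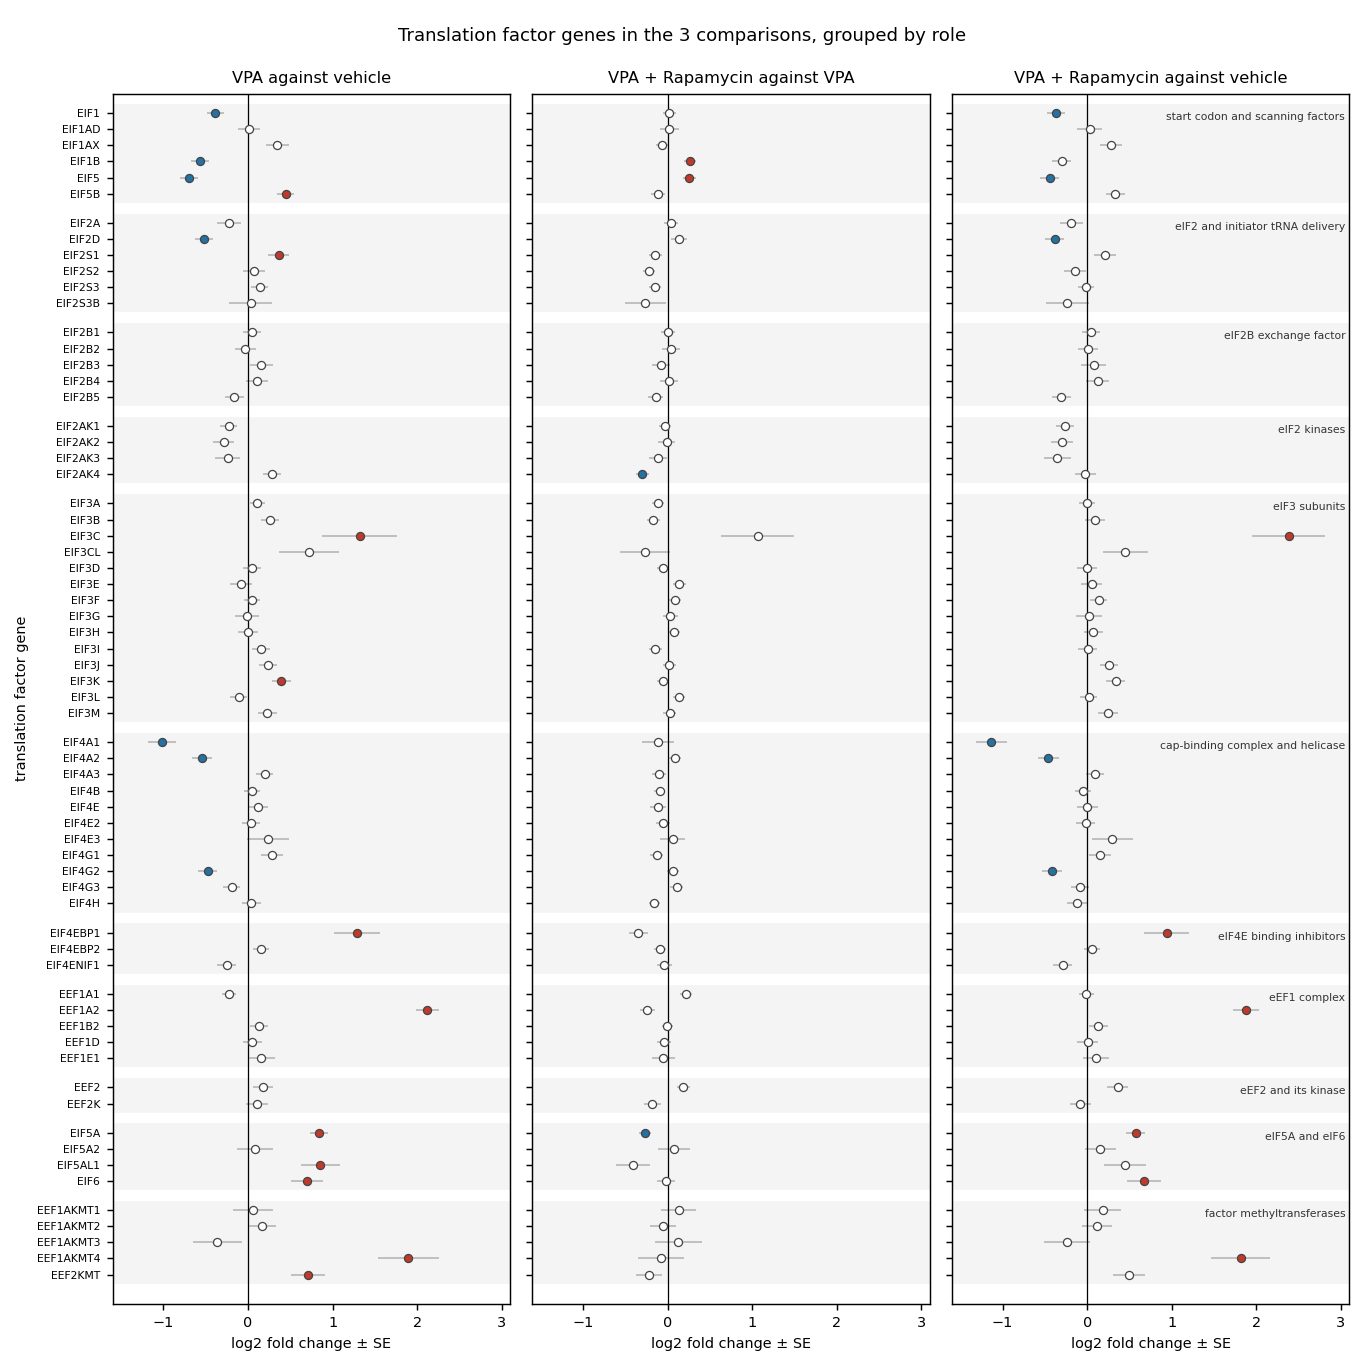
log2 fold change with its SE (bars) of the 65 tested translation factor genes in the 3 comparisons, grouped by role; filled symbols passed an edgeR adjusted p of at most 0.05 (red higher, blue lower). Under VPA 11 genes are filled red and 7 blue, with EEF1A2 farthest to the right, whereas 2 and 2 are filled when Rapamycin is added to VPA.

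EEF1A2 (ENSG00000101210, chr20:63488012-63499322, minus strand, GRCh38) was at 27.5, 33.7 and 38.3 CPM in the vehicle libraries, at 137.2, 147.3 and 151.2 CPM under VPA and at 108.4, 142.7 and 117.0 CPM under VPA + Rapamycin. The vehicle libraries lay far below the other 6 with no overlap. The log2 fold change of VPA against vehicle was 2.12 (SE 0.13, edgeR adjusted p = 4.69e-06), and it passed in all 12 alternative settings. The libraries are bulk, so more cells of a type and more RNA per cell cannot be told apart. Beside this, 5 of the 8 neuron markers looked at fell under VPA and 0 rose, where 15.7% of all genes tested were lower and 16.4% higher. Their summed level was 1420 to 2411 CPM in vehicle libraries and 1263 to 1346 CPM under VPA. At an unadjusted p of 0.05, 0 of the 8 were higher and 6 lower, and DESeq2 called 0 higher and 6 lower. The 4 skeletal muscle markers summed to 3.78 to 5.80 CPM in vehicle and 2.78 to 4.03 CPM under VPA, and only 1 of them passed the filter.

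EEF1A1 (ENSG00000156508, chr6:73515750-73523797, minus strand) was at 12307, 11412 and 12765 CPM in vehicle libraries, at 10881, 10687 and 9816 CPM under VPA and at 11921, 12609 and 11871 CPM under VPA + Rapamycin. Vehicle and VPA libraries did not overlap, yet the log2 difference of -0.23 (SE 0.08) gave an edgeR adjusted p of 0.0568 and was not called. Over the settings this adjusted p ran from 0.0304 to 0.191. Within a library, EEF1A2 made up 0.270%, 0.357% and 0.362% of eEF1A mRNA per length in vehicle SCOs. It made up 1.5%, 1.64% and 1.83% under VPA, and 1.09%, 1.35% and 1.18% under VPA + Rapamycin. The 3 conditions did not overlap in this share. The means were 0.329 ± 0.0518%, 1.66 ± 0.165% and 1.21 ± 0.134% (SD, n = 3 each). Each of the 3 differences had an exact two-sided permutation p of 0.1, the smallest that 3 against 3 allows, and 0.15 after adjustment over 6 such tests, so none could pass. EEF1A1 made up the rest of eEF1A mRNA in every library.

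Of the other 3 genes placed here by symbol beside EEF1A1 and EEF1A2, namely EEF1B2, EEF1D and EEF1E1, none was called, with log2 fold changes of 0.05 to 0.16. They do not make up the whole eEF1 complex, since EEF1G was not among the genes found. EEF2 was at 2942, 2291 and 2143 CPM in vehicle libraries, at 2801, 2743 and 2852 CPM under VPA and at 3115, 3473 and 2952 CPM under VPA + Rapamycin. Vehicle replicate 1 lay among the VPA libraries, the log2 difference of VPA against vehicle was 0.18 (SE 0.11), and the edgeR adjusted p was 0.258. Without vehicle replicate 1 it was 0.33, with an edgeR adjusted p of 0.00619. EEF2K, the kinase that inhibits eEF2, was not called either (0.10, SE 0.13).

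Of the 4 eIF5A and eIF6 genes, a list made with earlier results known, 3 were called higher and 0 lower. Over all genes tested, 16.4% were higher and 15.7% lower. The median log2 fold change of the 4 was 0.77, against -0.003 over all genes. EIF5A (ENSG00000132507, chr17:7306999-7312463, plus strand) was at 111.6, 97.3 and 92.5 CPM in vehicle libraries, at 173.8, 185.6 and 184.8 CPM under VPA and at 152.3, 156.2 and 142.7 CPM under VPA + Rapamycin. The 3 conditions did not overlap, and VPA against vehicle gave a log2 fold change of 0.84 (SE 0.10, edgeR adjusted p = 0.000223). EIF5AL1, its copy, rose by 0.86 (SE 0.23) from a mean of only 4.23 CPM. EIF6, which keeps the large subunit from joining too early, was at 28.6, 23.0 and 15.8 CPM in vehicle libraries and at 40.0, 33.1 and 36.8 CPM under VPA. The vehicle libraries of EIF6 were spread widely but did not reach the VPA libraries, and the log2 fold change was 0.69 (SE 0.19). EIF5A2, the second eIF5A gene, was not called (0.08, SE 0.21). At an unadjusted p of 0.05 and by DESeq2 the group likewise had 3 higher and 0 lower.

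Start codon and scanning factors went in both directions, with 1 of 6 called higher and 3 lower and a median log2 fold change of -0.19. Over all genes tested, 16.4% were higher and 15.7% lower. EIF5 (ENSG00000100664, chr14:103333544-103345025, plus strand), which triggers GTP hydrolysis by eIF2 at the start codon, was at 388.6, 449.2 and 476.6 CPM in vehicle libraries and at 271.4, 277.4 and 267.0 CPM under VPA. It was at 347.2, 302.6 and 323.6 CPM under VPA + Rapamycin, between the other conditions and without overlap with either. Its log2 fold change of VPA against vehicle was -0.70 (SE 0.10, edgeR adjusted p = 0.000588). EIF1B, a close relative of EIF1, was at 146.1, 162.1 and 176.3 CPM in vehicle libraries, at 109.2, 112.9 and 106.8 CPM under VPA and at 130.7, 130.9 and 133.8 CPM under VPA + Rapamycin. These too formed 3 separate groups, and the log2 fold change of VPA against vehicle was -0.57 (SE 0.10, edgeR adjusted p = 0.00217). EIF1, which guards the accuracy of start codon choice, fell by 0.38 on the log2 scale (SE 0.10). EIF5B, which joins the subunits, rose by 0.45 (SE 0.10), from 107.2 ± 7.0 to 147.4 ± 7.4 CPM (SD, n = 3). EIF1AX (0.35, SE 0.13) and EIF1AD (0.01, SE 0.13) were not called.

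Of the 11 tested genes of cap binding and unwinding, 0 were called higher and 3 lower, with a median of 0.04. The shares over all genes tested were 16.4% higher and 15.7% lower. At an unadjusted p of 0.05, 1 was higher, and DESeq2 called 0 higher and 3 lower. EIF4A2 (chr3:186783205-186789900, plus strand), the second eIF4A helicase, was at 553.9, 550.3 and 706.3 CPM in vehicle libraries, at 442.3, 404.7 and 406.1 CPM under VPA and at 416.8, 460.7 and 450.9 CPM under VPA + Rapamycin. Every vehicle library lay above the other 6, and the log2 fold change of VPA against vehicle was -0.54 (SE 0.12, edgeR adjusted p = 0.00489). EIF4A1 was at 15.4, 14.1 and 13.3 CPM in vehicle libraries and at 7.23, 6.97 and 7.16 CPM under VPA, a log2 fold change of -1.01 (SE 0.16, edgeR adjusted p = 0.00111). Its VPA libraries were at about the same level and far from the vehicle libraries, and it carries the limit on overlapping exons given above. EIF4G2 was at 1230, 1418 and 1624 CPM in vehicle libraries and at 1020, 1076 and 999.6 CPM under VPA, without overlap, and fell by 0.48 on the log2 scale (SE 0.11, edgeR adjusted p = 0.00746). The canonical scaffolds EIF4G1 (0.28, SE 0.13) and EIF4G3 (-0.19, SE 0.10) and the cofactors EIF4B (0.05, SE 0.09) and EIF4H (0.04, SE 0.11) were not called.

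EIF4E (ENSG00000151247, chr4:98871684-98930637, minus strand), the cap-binding protein, was at 70.0, 69.5 and 79.8 CPM in vehicle libraries, at 82.6, 85.5 and 71.8 CPM under VPA and at 79.6, 62.8 and 78.5 CPM under VPA + Rapamycin. All 3 conditions overlapped, and VPA against vehicle gave 0.12 (SE 0.11, edgeR adjusted p = 0.463). EIF4EBP1 was at 26.8, 13.2 and 11.0 CPM in vehicle libraries, at 35.8, 40.4 and 49.1 CPM under VPA and at 32.4, 35.7 and 30.4 CPM under VPA + Rapamycin. Vehicle replicate 1 stood at about the midpoint between the other vehicle libraries and the VPA libraries. The log2 fold change of VPA against vehicle was 1.28 (SE 0.27, edgeR adjusted p = 0.00486), with a range of 1.05 to 1.78 over the settings. EIF4EBP2, a second inhibitor of eIF4E and here the more abundant per length, was at 308.3, 298.7 and 293.9 CPM in vehicle libraries and at 340.0, 346.4 and 322.7 CPM under VPA. The libraries did not overlap, but the difference of 0.15 (SE 0.09) was not called (edgeR adjusted p = 0.211). EIF4ENIF1, a nuclear import partner of eIF4E, was not called (-0.25, SE 0.11).

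The summed level of the 3 4E-BP genes over that of EIF4E, per length, was 13.6, 10.9 and 8.94 in vehicle libraries, 13.7, 14.1 and 17.7 under VPA and 13.5, 16.7 and 13.1 under VPA + Rapamycin. Length counts all annotated exon bases, 14067 for EIF4E against 1073 for EIF4EBP1 and 7257 for EIF4EBP2. The size of the ratio therefore depends on the annotation. VPA libraries lay above vehicle libraries, the nearest pair by a small margin, and the VPA + Rapamycin libraries overlapped both. The difference of VPA against vehicle was 4.0 (exact two-sided permutation p = 0.1, adjusted 0.15). Those of VPA + Rapamycin against VPA (-0.75, exact p = 0.5, adjusted 0.5) and against vehicle (3.25, exact p = 0.3, adjusted 0.36) were smaller.

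Among the 6 genes of initiator tRNA delivery, 1 was higher and 1 lower under VPA, where 16.4% of all genes tested were higher and 15.7% lower. EIF2S1, the alpha subunit of eIF2 and the target of the stress kinases, was at 65.4, 73.2 and 86.7 CPM in vehicle libraries and at 96.7, 103.0 and 92.0 CPM under VPA. The libraries did not overlap and the log2 fold change was 0.36 (SE 0.12), but the edgeR adjusted p of 0.0437 rose to between 0.0635 and 0.167 without vehicle replicate 1 or 2 or without any one VPA replicate. It was 0.0679 with the replicate number as a block and 0.0582 with protein-coding genes only. EIF2D, which can deliver initiator tRNA without eIF2, fell by 0.52 on the log2 scale (SE 0.11, edgeR adjusted p = 0.00506), from 56.6, 53.3 and 50.1 to 37.0, 36.3 and 39.0 CPM, without overlap. EIF2S2 and EIF2S3, the beta and gamma subunits, stood at 0.07 (SE 0.13) and 0.14 (SE 0.10). None of the 5 eIF2B genes was called in either direction, with a range of -0.16 to 0.16 and 0 at an unadjusted p of 0.05 or by DESeq2. None of the 4 eIF2 kinase genes was called either (range -0.29 to 0.28), while 1 was higher and 2 lower at an unadjusted p of 0.05 and DESeq2 called 0.

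Of the 14 eIF3 subunit genes, 2 were called higher and 0 lower, with a median of 0.13. The shares over all genes tested were 16.4% and 15.7%. At an unadjusted p of 0.05, 4 of the 14 were higher and 0 lower, and DESeq2 called 1 higher. EIF3K was at 99.8, 96.2 and 79.8 CPM in vehicle libraries and at 128.0, 116.3 and 120.5 CPM under VPA, a log2 fold change of 0.39 (SE 0.11). EIF3C (chr16:28688558-28735730, plus strand) was at 8.99, 7.77 and 11.7 CPM in vehicle libraries, at 10.6, 46.4 and 14.9 CPM under VPA and at 16, 61.4 and 72.1 CPM under VPA + Rapamycin. VPA replicate 2 and VPA + Rapamycin replicates 2 and 3 stood far above the other 6 libraries, and vehicle and VPA overlapped. The log2 fold change of 1.32 (SE 0.44, edgeR adjusted p = 0.0398) became 0.42 with an adjusted p of 0.262 without VPA replicate 2. By comparison, EIF3B, a core subunit, was at 199.0, 195.8 and 200.6 CPM under VPA. EIF3CL was at 7.29, 2.78 and 4.15 CPM under VPA, highest in replicate 1.

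Of the 5 methyltransferase genes for eEF1A and eEF2, 2 were called higher and 0 lower, where 16.4% of all genes tested were higher and 15.7% lower. EEF1AKMT4, which methylates eEF1A, was at 1.24, 0.856 and 0.805 CPM in vehicle libraries, at 3.70, 2.71 and 4.55 CPM under VPA and at 4.28, 3.26 and 2.84 CPM under VPA + Rapamycin. The vehicle libraries lay below the other 6, and the log2 fold change of VPA against vehicle was 1.90 (SE 0.36, edgeR adjusted p = 0.00247). It shares 46.8% of its exon bases with other genes, chiefly its read-through with ECE2. EEF2KMT, which methylates eEF2, rose by 0.71 (SE 0.20), from 8.73 ± 1.62 to 14.4 ± 2.56 CPM (SD, n = 3). EEF1AKMT1, EEF1AKMT2 and EEF1AKMT3 were not called (-0.36 to 0.17).

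Without a single library the calls of 7 of these 18 genes no longer passed. Besides EIF2S1 and EIF3C they were EIF3K (adjusted p 0.0524 without vehicle replicate 2, 0.0884, 0.0588 and 0.0665 without VPA replicates 1, 2 and 3), EIF6 (0.0517 without vehicle replicate 2, 0.0710 and 0.0585 without VPA replicates 1 and 3), EIF5AL1 (0.0652 without VPA replicate 3), EEF2KMT (0.0934 and 0.0850 without VPA replicates 2 and 3) and EIF1 (0.0888 and 0.0516 without the same 2), all from edgeR. EIF3C also gave 0.0505 and 0.131 without vehicle replicates 1 and 2. The other 11 passed in each of the 12 alternative settings. Over the 65 genes the median coefficient of variation was 10.6% among vehicle libraries, 5.10% among VPA libraries and 6.88% among VPA + Rapamycin libraries. The most variable gene was EIF4EBP1 in vehicle (50.4%) and EIF3C in both other conditions (81.5% and 59.8%).

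**Figure D3:**
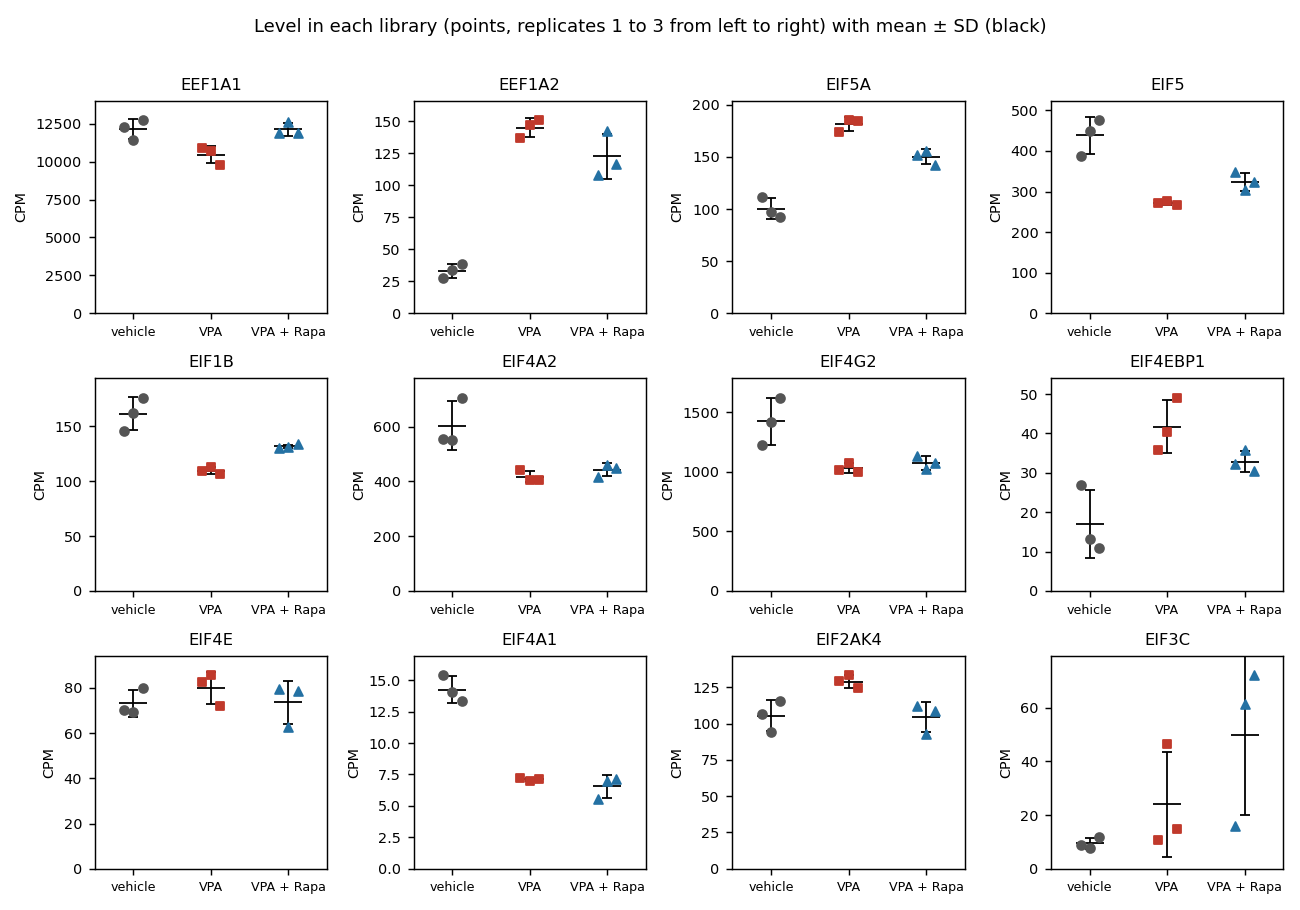
Level of 12 translation factor genes in CPM in each of the 9 libraries (symbols) with mean ± SD of the 3 libraries of a condition (black); every axis starts at 0. EEF1A2 is low in the 3 vehicle libraries and high in the other 6, EIF5, EIF1B and EIF5A form 3 separate groups, and EIF3C is high in 3 libraries of 2 conditions.

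The second comparison asks what Rapamycin changed in the presence of VPA. Few factors moved and all moved little. EIF5 and EIF1B rose by 1.20-fold each, EIF5A fell by 1.20-fold, and EIF2AK4, the kinase GCN2 that senses uncharged tRNA, fell by 1.23-fold. Thus 2 of 65 genes were higher and 2 lower, where 3.01% of 17317 genes tested were higher and 3.73% lower, a share near the background. The median log2 fold change was -0.05 over the 65 genes and 0.004 over all genes, and the median absolute value was 0.11 against 0.16. An unadjusted edgeR p under 0.05 was found for 12 of the 65, against 3714 of all 17317 genes tested. DESeq2 called 3 higher and 3 lower. VPA + Rapamycin is compared here with the same VPA libraries as above.

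In log2 terms EIF1B rose by 0.27 (SE 0.07, edgeR adjusted p = 0.0264) and EIF5 by 0.26 (SE 0.07, edgeR adjusted p = 0.0384). EIF5A fell by 0.27 (SE 0.07, edgeR adjusted p = 0.0319). None of these 3 overlapped between the 2 conditions. EIF2AK4 (ENSG00000128829, chr15:39934146-40035591, plus strand) was at 106.8, 94.1 and 115.3 CPM in vehicle libraries, at 129.3, 133.1 and 124.1 CPM under VPA and at 112.1, 93.1 and 108.7 CPM under VPA + Rapamycin. The VPA libraries were the highest of the 9, and the VPA + Rapamycin libraries overlapped the vehicle libraries. The log2 fold change against VPA was -0.30 (SE 0.08, edgeR adjusted p = 0.0315). The other eIF2 kinases, EIF2AK1, EIF2AK2 and EIF2AK3, were at -0.03, -0.01 and -0.11. None of the 4 calls passed when all 9 libraries shared a single estimate of spread (adjusted p from 0.221 to 0.262). Each was also lost without any one VPA replicate (0.0529 to 0.146 over the 4 genes) and without VPA + Rapamycin replicate 3 (0.0597 to 0.134). EIF5 and EIF5A were lost without VPA + Rapamycin replicate 1 (0.131 and 0.0501) and EIF2AK4 without replicate 2 (0.0883), all from edgeR. With the replicate number as a block, EIF1B (0.0600), EIF5 (0.0660) and EIF5A (0.0567) no longer passed and EIF2AK4 did (0.0349).

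The factors that mTOR acts on most directly were not called. EIF4EBP1 gave a log2 fold change of -0.34 (SE 0.11, edgeR adjusted p = 0.0802). Its conditions almost touched, with VPA replicate 1 at 35.78 CPM and VPA + Rapamycin replicate 2 at 35.75 CPM. EIF4EBP2 gave -0.09 (SE 0.07) and EIF4E gave -0.12 (SE 0.09). EEF1A1 gave 0.22 (SE 0.07, edgeR adjusted p = 0.0714) and EEF2 gave 0.19 (SE 0.07, edgeR adjusted p = 0.144), and neither overlapped between conditions; DESeq2 called EEF1A1 (adjusted p = 0.00709) and not EEF2 (0.0557). EEF1A2 gave -0.24 (SE 0.09, edgeR adjusted p = 0.125) with overlapping libraries. Of the 14 eIF3 genes none was called in either direction, where 3.01% of all genes tested were higher and 3.73% lower. At an unadjusted p of 0.05, 1 of the 14 was higher and 1 lower, and DESeq2 called 0. EIF3C had the largest estimate, 1.06 (SE 0.43), with overlapping libraries and an edgeR adjusted p of 0.149.

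Genes with a TOP-like start were looked at apart in this comparison. Of the 13, 0 were called in either direction, their median log2 fold change was 0.02 and their range was -0.26 to 0.22. EEF1A1 and EEF2 were at the upper end of this range, and EIF2S3B, a low-level relative of EIF2S3, at the lower. Of the 38 tested genes with another start, 2 were higher and 2 lower, with a median of -0.06. Over all tested genes in the table with the start, 19 of 838 were higher and 27 lower, with a median of -0.013. Without it, 362 of 10851 were higher and 461 lower, with a median of -0.006. Under VPA alone, 1 of the 13 was higher (EIF3K) and 2 lower (EIF2D, EIF4A2), with a median of 0.05, against 0.14 for the 38. In that comparison 129 of 840 tested genes with the start were higher and 145 lower. The poly-A selected libraries give mRNA level and say nothing of the translation of these mRNAs.

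The window from 250 bases before to 50 bases after the start was searched for motifs. A match to the AP-1 motif TGANTCA occurred in 5 of the 53 genes (9.43%), against 6.85% of the 11871 filtered genes. These 5 were EIF2AK4, EIF3J, EIF4G1, EIF5 and EIF5AL1. A match to the E-box CACGTG occurred in 14 of 53 (26.4%), against 12.3% of the same 11871. Both motifs read alike on both strands. A match is a description of letters and not a binding site.

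The last comparison asks which factors still differed from vehicle with both drugs. It shares its libraries with the other comparisons, so its values are given side by side with them. With VPA + Rapamycin, 6 of 65 genes were higher and 6 lower than in vehicle, where 9.81% of 17383 genes tested were higher and 9.22% lower. The median log2 fold change was 0.03 over the 65 genes and -0.001 over all genes. The higher genes were EEF1A2, EIF3C, EEF1AKMT4, EIF4EBP1, EIF6 and EIF5A, and the lower ones EIF4A1, EIF4A2, EIF5, EIF4G2, EIF2D and EIF1. The count of lower genes was 2 without vehicle replicate 2 and 1 without any one VPA + Rapamycin replicate, and the count of higher genes was 10 without vehicle replicate 3.

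EEF1A2 was 3.68-fold above vehicle (log2 1.88, SE 0.15, edgeR adjusted p = 0.000109), against 4.35-fold with VPA alone. EIF4EBP1 was 1.92-fold above vehicle (0.94, SE 0.27, edgeR adjusted p = 0.0340), against 2.44-fold with VPA alone. EIF5A was 1.49-fold above (0.57, SE 0.11, edgeR adjusted p = 0.00586), against 1.79-fold. EIF4A1 was 2.19-fold below (-1.13, SE 0.18, edgeR adjusted p = 0.00248), against 2.02-fold. EIF3C was 5.21-fold above (2.38, SE 0.43, edgeR adjusted p = 0.00473), with VPA + Rapamycin replicate 1 near the vehicle libraries, and passed in all 12 settings. EIF1B, lower under VPA alone, was not called against vehicle with both drugs (-0.30, SE 0.11, edgeR adjusted p = 0.0711). EIF5 was still lower (-0.44, SE 0.11, edgeR adjusted p = 0.0199). EEF1A1 (-0.01, SE 0.09), EIF4E (0.001, SE 0.13) and EIF4EBP2 (0.06, SE 0.10) were at the vehicle level within their error. EEF2 gave 0.36 (SE 0.13, edgeR adjusted p = 0.0678) and was not called, but it passed in 5 of the 12 alternative settings. The calls of EIF1, EIF4G2, EIF5, EIF6 and EIF4EBP1 were lost without vehicle replicate 2 or any one VPA + Rapamycin replicate (edgeR adjusted p up to 0.166), and that of EIF4A2 without any one VPA + Rapamycin replicate. That of EIF2D was lost without vehicle replicate 1 or 2, without any one VPA + Rapamycin replicate and without the filter on low counts (up to 0.176).

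Other genes of the translation machinery outside the name rule, 46 genes of termination, recycling, poly-A binding, eIF4E partners, factor modification and mitochondrial translation, were all tested. Under VPA edgeR called 11 higher and 6 lower, with a median of 0.02, where 16.4% of all genes tested were higher and 15.7% lower. The 3 higher ones with the smallest p were TUFM, the mitochondrial elongation factor Tu (0.66, SE 0.13), CYFIP2, a relative of the eIF4E-binding protein CYFIP1 (0.38, SE 0.09), and ETF1, the release factor eRF1 (0.42, SE 0.10). The 3 lower ones were DDX3X, a helicase for structured leaders (-0.55, SE 0.09), PDCD4, an inhibitor of eIF4A (-0.50, SE 0.10), and PPP1R15A, the stress-induced subunit of the eIF2 phosphatase (-0.72, SE 0.18). When Rapamycin was added to VPA, edgeR called 0 of the 46, where 3.01% of all genes were higher and 3.73% lower. At an unadjusted p of 0.05, 4 were higher and 5 lower, and DESeq2 called 1 higher. Against vehicle with both drugs, 3 were higher and 5 lower, where 9.81% of all genes tested were higher and 9.22% lower. The 3 higher were TUFM (0.57, SE 0.13), GFM1, a mitochondrial elongation factor G (0.51, SE 0.13), and DPH3, of diphthamide synthesis (0.42, SE 0.13). The 3 lower with the smallest p were DDX3X (-0.54, SE 0.10), PDCD4 (-0.42, SE 0.11) and PPP1R15A (-0.59, SE 0.16).

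Markers of cell types that SCOs can hold moved with the conditions, and their part in the results was not tested. The 5 neural progenitor markers summed to 1682 to 1859 CPM in vehicle libraries, 2046 to 2248 CPM under VPA and 1788 to 1951 CPM under VPA + Rapamycin. HES5 alone was called higher under VPA, from a mean of 316.3 to 615.9 CPM, while SOX1, SOX2, PAX6 and NES were not called, with log2 fold changes of -0.03 to 0.23. The 6 mesenchymal markers summed to 136.2 to 291.3, 556.2 to 711.0 and 242.9 to 368.2 CPM in the same order, and 2 rose under VPA and 5 fell when Rapamycin was added. The 2 were COL1A1 and COL1A2, which held most of the sum, with means of 270.2 and 319.5 CPM under VPA. LUM (0.41) and TWIST1 (0.65) were above 0 and COL3A1 (-0.49) and PRRX1 (-0.43) below, none of them called under VPA. DESeq2 called 1 higher under VPA and 4 lower when Rapamycin was added. The neuron markers summed to 1360 to 1422 CPM under VPA + Rapamycin, where 2 of the 8 rose against VPA. Of the neural crest markers, 3 of 4 tested fell under VPA and 2 of 4 rose when Rapamycin was added; of the 5 spinal position markers, 4 fell under VPA and 3 rose. Over all genes tested, 16.4% were higher and 15.7% lower under VPA, and 3.01% and 3.73% when Rapamycin was added to VPA. The pluripotency markers POU5F1 and NANOG summed to 0.309 to 1.14 CPM over the 9 libraries.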

How the data were processed

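Libraries were prepared from poly-A selected RNA with a NEBNext Ultra kit, per the labels. Per the submitters' processing notes, the authors aligned reads with HISAT2 2.0.5 and counted them per gene with featureCounts 1.5.0-p3; use of strand is not given in the sources used here. The deposited values are raw counts per gene in 3 tables, 1 per comparison, which also list each gene's length. The remaining 36 per-sample columns (FPKM and counts scaled by size factors) and the authors' fold changes and p-values were not used.

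Each pair was fitted on its own table with edgeR 4.0.16 in R 4.3.3 (TMM, filterByExpr, quasi-likelihood test, no covariate), with Benjamini-Hochberg adjustment over all genes tested and calls at an adjusted p of at most 0.05. CPM were TMM-scaled over the 9 libraries and RPKM divided them by gene length. Ratios were compared by exact permutation. Alternatives were DESeq2 1.42.0, its size factors, no filter, all 9 libraries in a single fit, protein-coding genes only, a replicate block and leaving out each library. The script was tested on simulated data.

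The genes, role lists, markers and other translation genes were chosen with earlier results of these data known. Genes given with values were EEF1A1, EEF1A2, EEF2, EIF4E, the EIF4EBP genes, all called genes, and the 3 higher and 3 lower called other translation genes with the smallest p; others are given as examples, by range or count. Replicates differed by more than counting noise. Sources disagree on the VPA dose and on the time of exposure, for which the labels' time is given.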

Additional observations from a re-analysis of the deposited data

How the results depend on the processing

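Under VPA against vehicle the counts were 6 to 14 higher and 6 to 11 lower when 1 library was left out, and moved by less than 1.5 times in all other settings. For VPA + Rapamycin against VPA, with 2 higher and 2 lower, they were 4 and 4 without the filter on low counts, 0 and 0 with all 9 libraries in a single fit, and 0 to 2 and 0 to 3 with 1 library left out. For VPA + Rapamycin against vehicle, 10 genes were lower with all 9 libraries in a single fit, and leaving out 1 library gave 4 to 10 higher and 1 to 8 lower. Same-numbered libraries share a code whose meaning the labels do not give. Their deviations correlated at -0.06 to 0.04 for VPA against vehicle, -0.02 to 0.06 for VPA + Rapamycin against VPA and 0.05 to 0.15, positive in all 3 pairs, for VPA + Rapamycin against vehicle. Pairing was not established, since no comparison had every pair above 0.1, and it cannot be dismissed. A replicate block gave 10 and 7, 1 and 1, and 8 and 6 genes in the 3 comparisons.

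A pair of values near 0 changed sign for VPA + Rapamycin against vehicle: EIF4E became -0.0013 with DESeq2, -0.0060 with DESeq2 size factors, -0.0019 with all 9 libraries, -0.0036 with a replicate block, -0.016 with protein-coding genes only and -0.055 to 0.109 with 1 library left out, and EEF1A1 ran from -0.059 to 0.027 with 1 library left out. The 4E-BP to EIF4E difference for VPA + Rapamycin against VPA ran from -1.89 to 0.505 with 1 library left out. The causes were not tested. Genes near 3 counts per library, EIF4EBP3 and EIF4E1B, could not be compared at this depth.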
